A study of Oryctolagus cuniculus with 12 samples.

Results

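The data describe 33 skeletal muscle genes in RNA-seq libraries of the rabbit ear. A list of 40 gene symbols was set by name, with 14 symbols for fast fibres, 9 for slow fibres and 17 for both fibre types, and a row of the expression table was taken wherever its gene name was on the list. The table held 33 of the 40 symbols among its 29587 rows, namely 9 fast, 8 slow and 16 shared genes. The 7 symbols with no row of that name were MYH2, TTN, TNNI2, MYBPC2, PVALB, TNNC2 and TNNT1. The rule used names alone, but the list itself was drawn up with earlier results of these data known.

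The study asked how hypertrophic scar (HS), a raised and collagen-rich scar, changed under a drug-carrying microneedle patch. The rabbits were wild type and female, and were 10 to 12 weeks old when obtained. In 3 of the groups each ear carried 4 round lesions, 7 mm across, on its inner face, cut down to the cartilage. The 4 groups, of 3 rabbits each, were normal skin (NS) from unwounded rabbits, HS left untreated, HS under drug-loaded MNs (microneedles that carry a derivative of 5-fluorouracil, 1 patch per lesion) and HS under 5-Fu injection (120 μg of 5-fluorouracil in 0.1 mL per lesion). Both treatments were given on days 22, 29 and 36, and ear tissue of full thickness was taken on day 43. A library is named here by its group and replicate number, such as NS 3.

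A skeletal muscle fibre is a long cell filled with sarcomeres, in which myosin filaments pull on actin filaments when calcium binds to troponin. Fast fibres and slow fibres use different copies of myosin, troponin and calcium-handling proteins, so a tissue with fibres can be typed by the copies it carries. The muscles that move the ear attach mainly around its base, while the outer ear is a sheet of cartilage under skin. The structural proteins of a fibre are among the most abundant messages of muscle tissue.

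The libraries held 10521472 to 14043667 reads on genes, and on a transcript of 1 kilobase a single read was worth 0.0768 to 0.0972 FPKM (fragments per kilobase of gene length, scaled to library size). FPKM is scaled by gene length, so levels of different genes may be set side by side. The 33 genes together took 43252 of 141243473 reads, and between 0.0122% of the reads (HS 3) and 0.118% (NS 3) of a library. Keratins of the epidermis (KRT1 at a mean of 1326 FPKM) and COL2A1, the main collagen of cartilage (a mean of 1653 FPKM), were abundant, so the labelled skin and ear tissue carried its defining markers.

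The genes that define a fibre were at or close to 0. MYH7, the myosin motor of slow fibres, had 8 reads in the 12 libraries, with 5 in HS 2, 2 in HS 3 and 1 in drug-loaded MNs 3. MYH1 and MYH4, which are fast myosin motors, had 4 and 2 reads. Those reads lay in NS 2 (2 for each gene) and drug-loaded MNs 2 (2 for MYH1). The 2 fast myosins are near-identical neighbours on chromosome 19, so the split between them is uncertain. TCAP, which caps titin at the edge of the sarcomere, and TRDN, which anchors the calcium release complex, had 0 reads in 12 libraries, which allows a mean of up to 0.0391 FPKM for TCAP and 0.00443 FPKM for TRDN. These limits and the read counts cover counting error alone.

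Other markers that are usually strong in muscle were as low. MB, the oxygen store myoglobin, had 5 reads, with 1 in HS 1, 2 in HS 3, 1 in drug-loaded MNs 1 and 1 in 5-Fu injection 3. CACNA1S, the voltage sensor of the fibre membrane, had 2 reads in total. MYOT and XIRP2, which are proteins of the Z-disc and of fibre attachment, had 3 reads each. NEB, the ruler of the thin filament, had 2 to 16 reads in a library and 99 in total. Of the 33 genes, 18 had fewer than 100 reads over the 12 libraries and 11 had 10 or fewer, and those 11 genes summed to 36 reads. Other listed genes were detected with more reads, among them MYBPC1 (5424), ACTA1 (1420), CASQ2 (1157), RYR1 (1071), CKM (1048), TNNT3 (598) and TNNI1 (375). Genes of striated muscle were thus measured while the myosin motors, myoglobin and the regulators given next were at or near 0, and the set is called here the listed muscle genes, not muscle fibres.

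**Figure D1:**
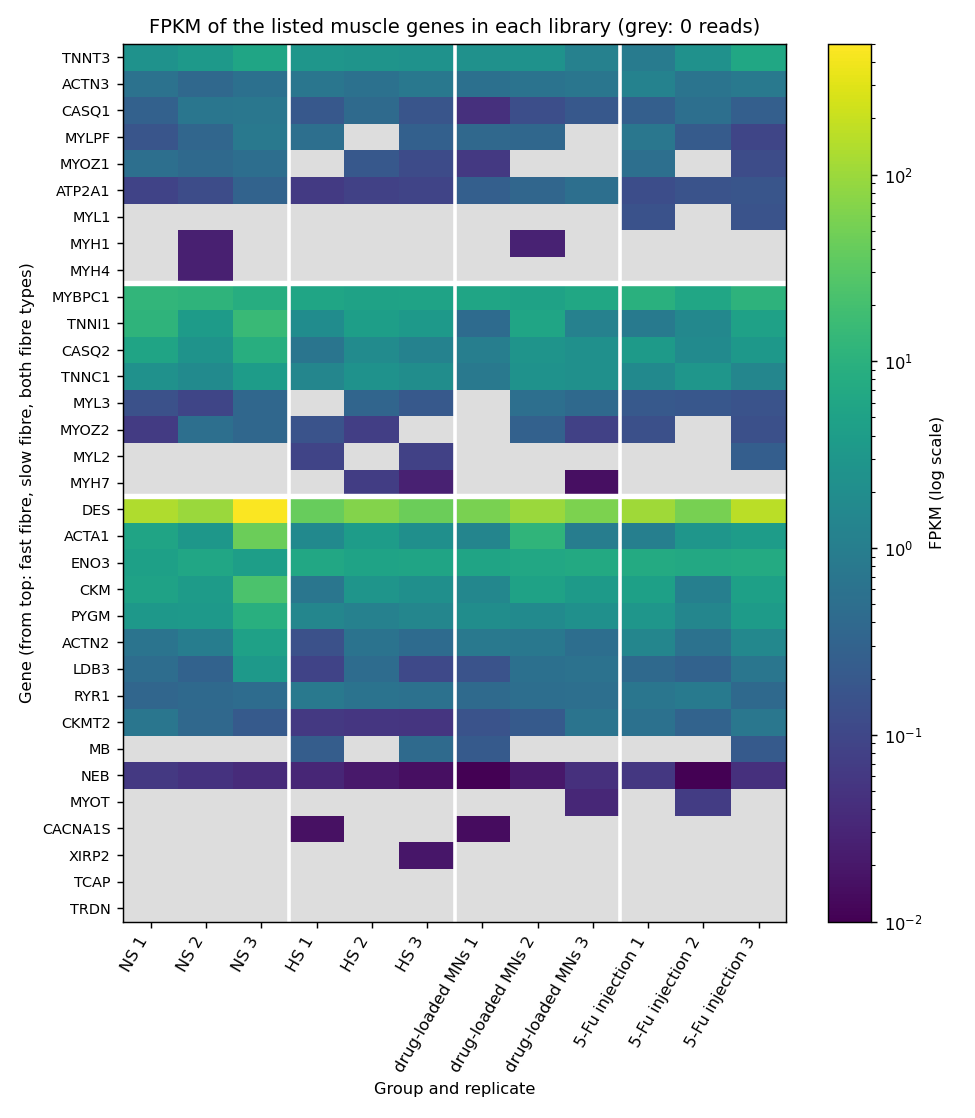
FPKM of each of the 33 listed muscle genes (rows) in each of the 12 libraries (columns), with colour on a log scale and grey for 0 reads. White lines part the fast, slow and shared genes and the 4 groups. DES stands out at 41.2 to 479 FPKM, and the rows of MYH1, MYH4, MYH7, MYL1, MYL2, TCAP and TRDN are mostly or fully grey.

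The regulators that make and repair muscle gave the same picture of low reads. MYF5, MYOD1 and MYOG, transcription factors that commit cells to muscle and drive their differentiation, had 0 reads in 12 libraries, with upper limits of 0.0140, 0.0143 and 0.0310 FPKM. PAX7, the marker of muscle stem cells, had 9 reads, with 1 in HS 1, 1 in HS 2, 1 in drug-loaded MNs 1, 2 in drug-loaded MNs 3 and 4 in 5-Fu injection 1. MYF6, a factor of mature fibres, had 1 read in drug-loaded MNs 1 and 2 in drug-loaded MNs 2. Of 17 named regulators and genes of developing muscle, 14 were in the table and 4 reached a mean of 1 FPKM or more, the limit for testing. Of these 4, 0 met the calling rule in limma between HS and NS (an adjusted p under 0.05 with a log2 fold change above 1 in size), which 5.00% of all tested genes met, and 2 had an unadjusted p under 0.05 against 23.4%.

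Fast and slow copies were set side by side in 5 pairs for which both copies had a row. For the myosin motors, the fast copies had 6 reads and the slow copy had 8, which is too few to rank them. For the regulatory myosin light chains, which tune the motor, fast MYLPF had 2, 4 and 8 reads in NS, 5, 0 and 3 in HS, 4, 4 and 0 in drug-loaded MNs and 8, 2 and 1 in 5-Fu injection. Slow MYL2 had 1 read in HS 1, 1 in HS 3 and 3 in 5-Fu injection 3, so MYLPF had the higher FPKM in 9 libraries and MYL2 in 1. For the essential light chains, which stiffen the motor's lever, the order was the other way. Fast MYL1 had 2 reads in 5-Fu injection 1 and 2 in 5-Fu injection 3, whereas slow MYL3 had 3, 2 and 7 in NS, 0, 6 and 4 in HS, 0, 10 and 7 in drug-loaded MNs and 4, 3 and 3 in 5-Fu injection. MYL3 had the higher FPKM in 9 libraries and MYL1 in 1.

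The calsequestrins, which bind calcium in its store inside the fibre, were the pair with enough reads to rank. Fast CASQ1 had 7, 17 and 16 reads in NS, 4, 9 and 4 in HS, 1, 3 and 4 in drug-loaded MNs and 6, 10 and 6 in 5-Fu injection. CASQ2, the copy of slow fibres and of the heart, had 194, 93 and 283 reads in NS, 20, 56 and 40 in HS, 33, 90 and 68 in drug-loaded MNs and 125, 50 and 105 in 5-Fu injection. The level of CASQ2 was above that of CASQ1 in 12 of 12 libraries, and the ratio of the mean FPKM was 8.94 over the 12 libraries. By group the ratio was 9.83 in NS, 4.60 in HS, 16.0 in drug-loaded MNs and 8.25 in 5-Fu injection, resting on 40, 17, 8 and 22 reads of CASQ1. MYOZ1 and MYOZ2, the fast and slow Z-disc proteins that bind calcineurin, had 41 and 26 reads, and MYOZ1 was the higher in 6 libraries and MYOZ2 in 5. The pairs thus did not point to one fibre type.

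**Figure D2:**
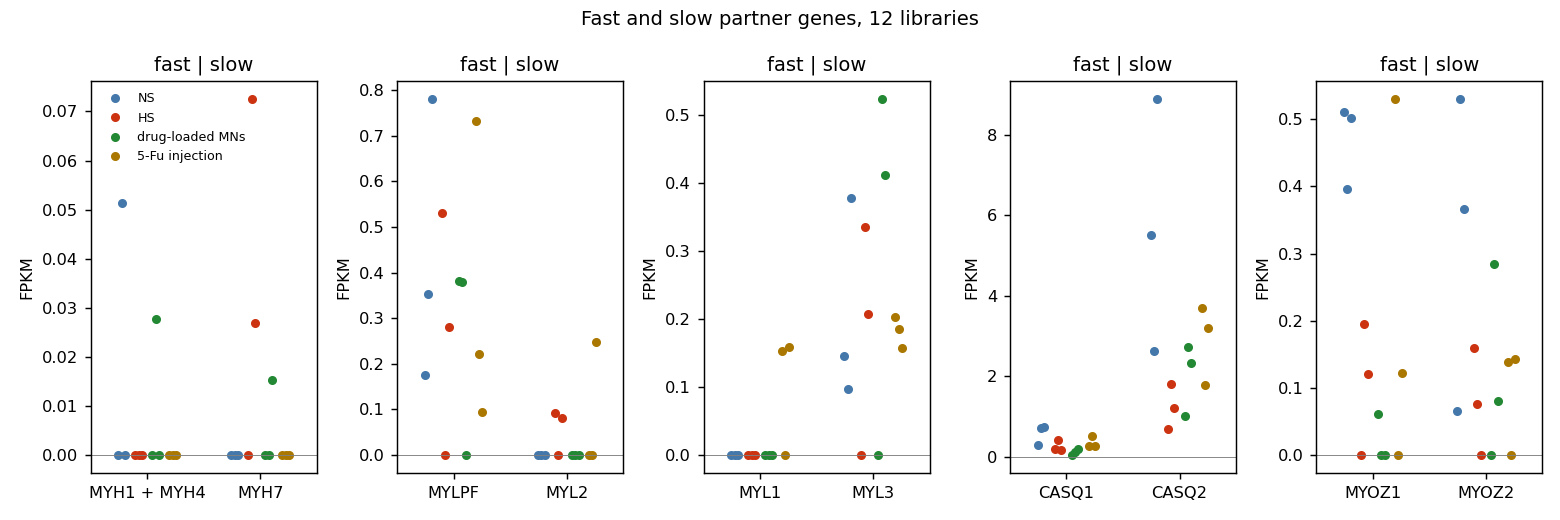
FPKM of 5 pairs of fast and slow partner genes, with 1 point per library coloured by group and a separate linear axis for each pair. CASQ2 lies above CASQ1 in 12 of 12 libraries, while the myosin motors stay below 0.08 FPKM.

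Among the genes of 1 fibre type that had a row, slow genes carried more of the signal. The summed level of the 9 fast genes was 4.09, 5.49 and 8.72 FPKM in NS, 4.50, 4.01 and 3.91 in HS, 3.65, 3.98 and 2.59 in drug-loaded MNs and 3.92, 3.94 and 7.93 in 5-Fu injection. The summed level of the 8 slow genes was 31.7, 20.1 and 37.5 FPKM in NS, 10.0, 14.4 and 12.1 in HS, 8.04, 16.8 and 12.5 in drug-loaded MNs and 16.3, 12.6 and 20.8 in 5-Fu injection. The slow sum was higher than the fast sum in 12 of 12 libraries, but the sets were not matched. The fast partners of slow TNNI1, TNNC1 and MYBPC1, namely TNNI2, TNNC2 and MYBPC2, had no row of that name. In NS 1, MYBPC1 and TNNI1 alone were at 12.3 and 11.3 FPKM. Fast TNNT3 lacked a row for its slow partner TNNT1. NS libraries had higher slow sums than HS and drug-loaded MNs libraries without overlap, and their fast sums lay above those of drug-loaded MNs without overlap but overlapped with those of HS and 5-Fu injection.

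A score on the log2 scale, over the same unmatched sets, gave less separation. The mean log2(FPKM + 1) over the fast genes minus that over the slow genes was negative in 12 of 12 libraries when all 17 rows were used, at -0.96 ± 0.20 in NS, -0.59 ± 0.16 in HS, -0.61 ± 0.30 in drug-loaded MNs and -0.64 ± 0.09 in 5-Fu injection (SD, n = 3). With genes under a mean FPKM of 1 left out, TNNT3, the fast troponin T, was the 1 fast gene that remained, beside the slow genes CASQ2, TNNI1, TNNC1 and MYBPC1. The difference was then -1.17, -0.14 and -0.45 in NS, 0.42, -0.19 and -0.07 in HS, 0.46, -0.48 and -0.73 in drug-loaded MNs and -1.06, -0.15 and 0.50 in 5-Fu injection. The groups overlapped, and the group means, at -0.59 ± 0.52, 0.05 ± 0.32, -0.25 ± 0.63 and -0.24 ± 0.79 in the same order, lay within the spread of the libraries. The sign in HS turned to -0.13 without HS 1, and the sign in 5-Fu injection turned to 0.18 without 5-Fu injection 1.

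DES, the intermediate filament desmin of skeletal, heart and smooth muscle, carried 63.1% of the reads of the listed genes. Its level was 136, 98.5 and 479 FPKM in NS, 41.2, 66.0 and 43.4 in HS, 55.7, 100.2 and 59.2 in drug-loaded MNs and 105, 54.3 and 166 in 5-Fu injection. The lowest NS library lay above the highest HS library, and NS 3 lay far above every other library. The gene lies on chromosome 7 (160621412 to 160627456, plus strand, in the coordinates of the deposited table, whose genome build was not given in the sources used here). The summed level of the 33 genes followed DES, at 317 ± 260 FPKM in NS, 79.8 ± 17.2 in HS, 106 ± 37.0 in drug-loaded MNs and 150 ± 66.8 in 5-Fu injection (SD, n = 3). Without DES, the sums were 79.1, 29.6, 34.6 and 40.9 FPKM.

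Of the 33 genes, 11 passed the filter and were tested with limma, and 22 lay below it. ACTN2, a crosslinker of the Z-disc, passed through NS 3, and its mean over the other libraries was 0.777 FPKM. Below the filter, with 100 reads or more, were RYR1, the calcium release channel, with 1071 reads, LDB3, a Z-disc scaffold, with 475, and the fast genes ACTN3 (265 reads) and ATP2A1 (120 reads), a calcium pump. RYR1 had 63 to 74 reads in an NS library, 95 to 121 in HS, 69 to 85 in drug-loaded MNs and 68 to 126 in 5-Fu injection. LDB3 had 33, 21 and 215 reads in NS against 5, 28 and 7 in HS, with the largest number in NS 3.

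HS was compared with NS to ask how the scar differed from unwounded skin. CASQ2 was lower in HS. Its level was 5.50, 2.64 and 8.89 FPKM in NS against 0.68, 1.82 and 1.20 in HS, and the groups did not overlap. On the log2(FPKM + 1) scale it fell by 1.49 (SE 0.38, limma adjusted p = 0.0381). The gene lies on chromosome 13 (48463684 to 48534001, plus strand).

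PYGM, the phosphorylase that frees glucose units from muscle glycogen, was also lower in HS. Its level was 3.27, 3.36 and 9.22 FPKM in NS and 1.44, 1.18 and 1.43 in HS. The HS libraries lay close together and below every NS library. On the log2(FPKM + 1) scale it fell by 1.29 (SE 0.34, limma adjusted p = 0.0442). The gene lies on the unplaced scaffold GL019294 (57704 to 73485, plus strand).

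These 2 genes made 2 of the 11 tested, both lower, where limma called 5.00% of 13287 tested genes (3.53% higher and 1.48% lower) at an adjusted p under 0.05 with a log2 fold change above 1 in size. Both calls were lost when any 1 of several libraries was left out. Without NS 3 CASQ2 changed by -1.15 (adjusted p = 0.104, limma) and PYGM by -0.88 (adjusted p = 0.0927, limma), and MYBPC1 was the 1 gene called. The number called was 0 without NS 1, HS 1, HS 2, HS 3 or drug-loaded MNs 3, and 1 without drug-loaded MNs 1 or drug-loaded MNs 2. Calls over all genes fell as well, from 665 to 382 without NS 1 and to 419, 440 and 450 without HS 1, HS 2 and HS 3. They were 653 without NS 3 and 636 without drug-loaded MNs 3. With FPKM rescaled to the total of reads on genes, 5 of 11 were called lower (CASQ2, CKM, DES, MYBPC1 and PYGM). That scaling moved the median log2 fold change of all tested genes from -0.01 to -0.33 and turned the calls over all genes from 469 higher and 196 lower to 311 higher and 749 lower.

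MYBPC1, the slow form of myosin-binding protein C, had the smallest p of the listed genes. Its level was 12.3, 11.3 and 8.53 FPKM in NS and 5.73, 5.19 and 5.22 in HS, without overlap, and NS 3 was here the lowest NS library. The difference was -0.86 (SE 0.20, limma adjusted p = 0.0267), under the fold threshold in size, and 7.45% of the tested genes had an adjusted p under 0.05. The gene lies on chromosome 4 (80905923 to 81043141, plus strand).

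DES, at -1.90 (SE 0.55, limma adjusted p = 0.0602), had the largest difference among the 11 and did not pass. The intervals were wide for CKM, the creatine kinase that buffers ATP in muscle, and for ACTA1, the actin of the skeletal thin filament. CKM was at 5.02, 3.77 and 23.7 FPKM in NS and 0.68, 2.78 and 2.19 in HS, a difference of -1.71 on the log2(FPKM + 1) scale (95% interval -3.10 to -0.32, limma adjusted p = 0.133). ACTA1 was at 5.56, 3.10 and 44.2 FPKM in NS and 1.67, 3.97 and 2.21 in HS, a difference of -1.61 (95% interval -3.54 to 0.32, limma adjusted p = 0.304). In NS both genes had their high value in NS 3. ACTA1 has near-identical coding sequence to the smooth muscle actins, at 315 FPKM on average for ACTA2, so reads could be shared between them and its level is uncertain.

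The troponins, which sense calcium on the thin filament, overlapped between NS and HS. Slow TNNI1 was at 11.3, 3.79 and 15.5 FPKM in NS and 1.96, 4.34 and 3.31 in HS. TNNC1, the calcium sensor of slow fibres and of the heart, was at 2.35, 1.76 and 3.90 FPKM in NS and 1.41, 2.52 and 2.02 in HS. Fast TNNT3 was at 2.44, 3.47 and 5.83 FPKM in NS and 3.01, 2.73 and 2.48 in HS, with a difference of -0.34 (95% interval -1.27 to 0.60). ENO3, a glycolytic enolase of muscle, was the tested gene with the higher mean in HS, at 4.77, 6.07 and 4.34 FPKM in NS and 6.68, 5.38 and 5.47 in HS. For 6 of the 11 tested genes (ACTN2, CKM, CASQ2, DES, MYBPC1 and PYGM) every HS library lay below every NS library, which held for 15.3% of the 13287 tested genes. ACTN2 had passed the filter through NS 3, so its place in that count was partly set by the filter. The median log2 fold change was -1.28 over the 11 and -0.01 over all tested genes, as a description of the genes that passed.

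**Figure D3:**
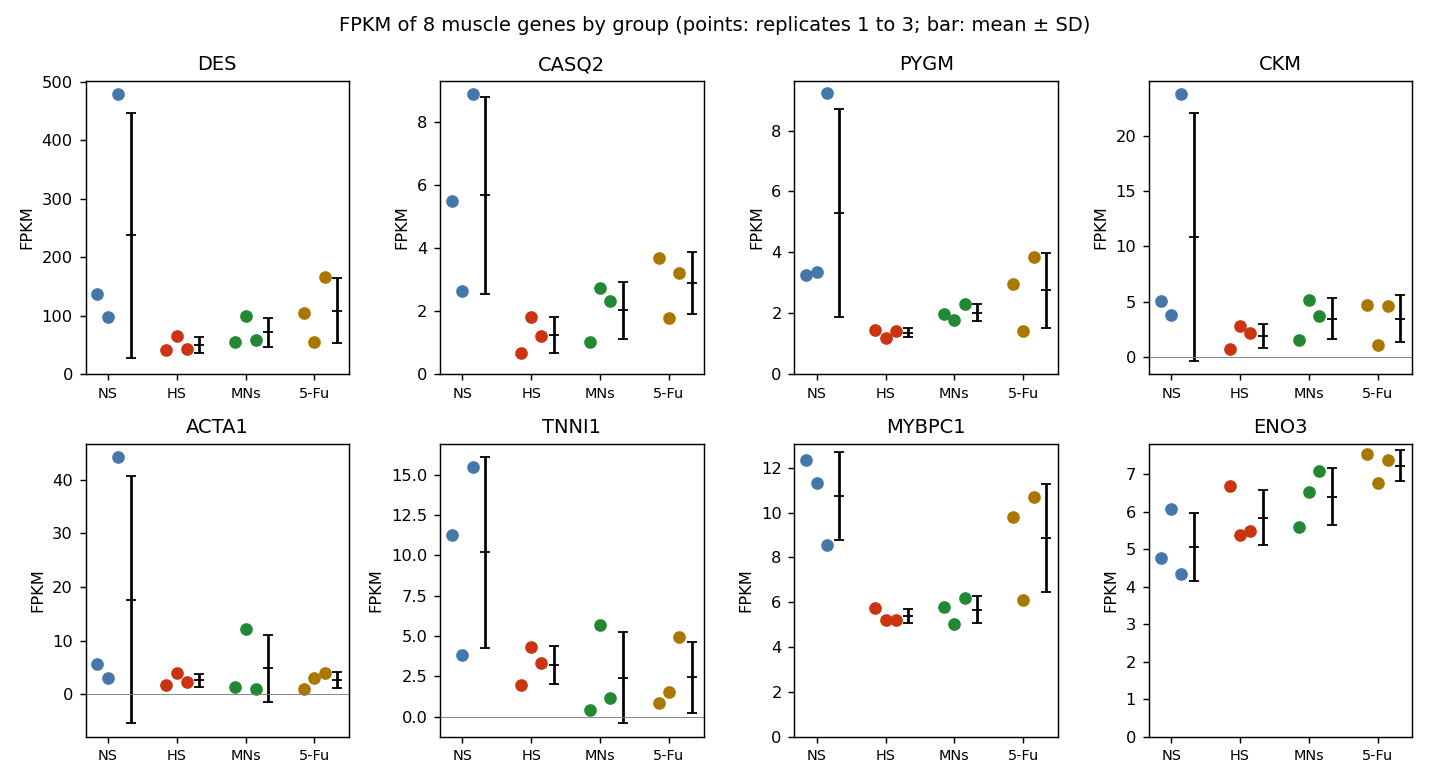
FPKM of 8 of the tested muscle genes by group on linear axes, with 1 point per library (replicates 1 to 3 from left to right) and the mean ± SD beside them. NS 3 gives the highest point for DES, CASQ2, PYGM, CKM, ACTA1 and TNNI1. MYBPC1 is high in 3 of 3 NS libraries and also in 5-Fu injection 1 and 5-Fu injection 3, which lie above NS 3.

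In a bulk sample, fewer cells of a type and less RNA per cell cannot be told apart. NS 3 was the highest of the 12 libraries for 8 of the 11 tested genes, while it was the highest for 8.78% of all tested genes. Smooth muscle, found around vessels and in the erector muscles of hairs, also uses desmin and was followed with a list of 9 genes, of which 7 were in the table and were tested. NS 3 was the highest library for 7 of these 7. The summed level of the list was 295 to 1840 FPKM in NS, 345 to 532 in HS, 300 to 382 in drug-loaded MNs and 447 to 930 in 5-Fu injection, and none of the 7 was at 0. Between HS and NS 0 of the 7 were called by limma, against 5.00% of all tested genes, with 2 at an unadjusted p under 0.05 against 23.4% of all tested genes.

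DES moved with the smooth muscle myosin MYH11. MYH11 was at 74.6, 53.6 and 470 FPKM in NS, 29.2, 53.6 and 45.8 in HS, 39.6, 67.9 and 58.3 in drug-loaded MNs and 106, 47.8 and 92.3 in 5-Fu injection. The ratio of DES to MYH11 lay between 0.947 and 1.84 in the 12 libraries, over which DES itself went from 41.2 to 479 FPKM. All 7 smooth muscle genes had a negative log2 fold change in HS against NS. MYH11 had the largest (-1.55), while ACTA2 was at -0.18 and SMTN at -0.02. The sum of the 33 listed genes over the sum of the smooth muscle list was 0.548, 0.483 and 0.335 in NS. In HS that ratio was 0.127, 0.285 and 0.210. The part of smooth muscle in the difference between HS and NS was not tested. Markers of nerve and Schwann cells moved in the same comparison. Their summed level was 403 to 983 FPKM in NS and 126 to 202 in HS over the 7 of 9 genes in the table, and limma called 2 of the 5 tested genes lower, against 1.48% of all tested genes. None of the 7 was at 0 in every library, and their part was not tested.

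**Figure D4:**
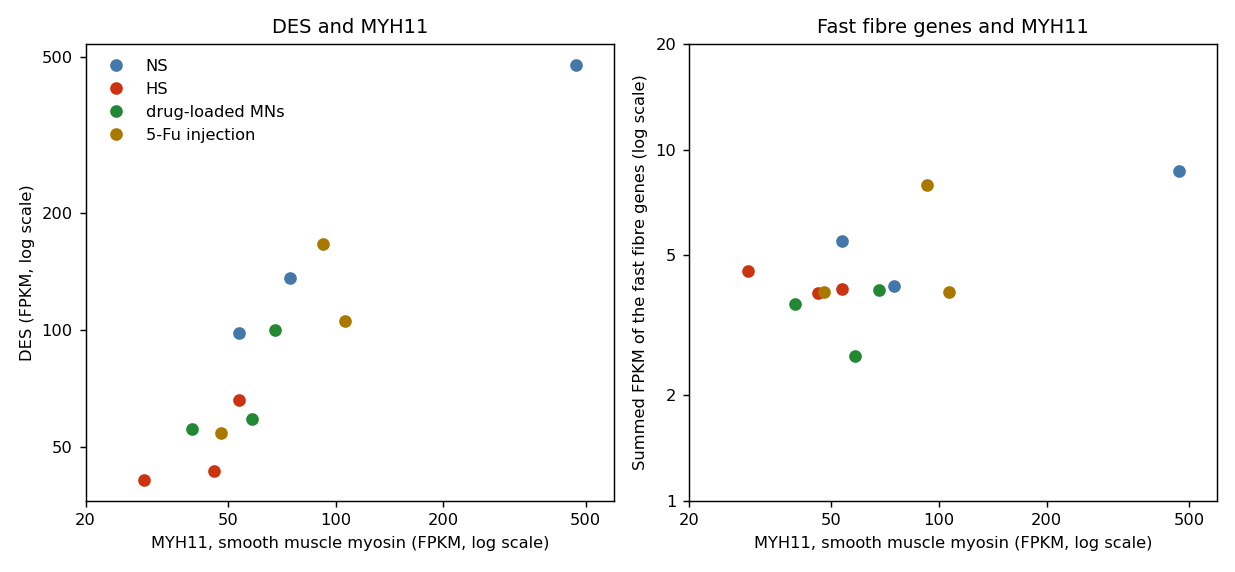
Each point is 1 library coloured by group, with the FPKM of MYH11 on a log axis against the FPKM of DES (left) and against the summed FPKM of the 9 fast fibre genes (right), both on log axes. DES follows MYH11 from 41.2 to 479 FPKM, while the fast genes stay between 2.59 and 8.72 FPKM, also highest in NS 3. The summed slow genes, not drawn, went from 8.04 FPKM in drug-loaded MNs 1 to 37.5 in NS 3.

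Tested genes outside the list were ranked by how like their pattern was to the mean of all 33 listed genes. The measure was Pearson's r of log2(FPKM + 1) over the 12 libraries, a description in which NS 3 weighs heavily and group differences are shared. The top genes were CTNNAL1 (r = 0.944), MYH11 (r = 0.939), LMOD1 (r = 0.912), CAP2 (r = 0.909) and DTNA (r = 0.907). LMOD1 is an actin filament nucleator of smooth muscle. Without NS 3 the values were 0.849, 0.811, 0.735, 0.703 and 0.698. Among the 11 tested listed genes themselves r with that mean, of which each is a part, went from 0.979 for DES to -0.45 for ENO3.

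Drug-loaded MNs were set against HS to ask how the patch changed the scar. For the 3 tested genes with the smallest p, the differences were smaller than 1 on the log2(FPKM + 1) scale. CASQ2 was at 1.01, 2.74 and 2.32 FPKM in drug-loaded MNs, a difference from HS of 0.42 (SE 0.38, limma adjusted p = 0.805). PYGM was at 1.98, 1.77 and 2.31 FPKM, above every HS library, with a difference of 0.36 (SE 0.34, limma adjusted p = 0.813). CKM was at 1.51, 5.17 and 3.68 FPKM and its difference was 0.61 (SE 0.63, limma adjusted p = 0.829). Of the 11 genes 0 were called, where limma called 0.00753% of all tested genes, and 0 of the 11 had an unadjusted p under 0.05 against 8.90% of all tested genes.

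Drug-loaded MNs libraries differed among themselves for some genes. ACTA1 was at 1.39, 12.1 and 0.97 FPKM in the 3 libraries and TNNI1 at 0.44, 5.68 and 1.14 FPKM, so that drug-loaded MNs 2 was the highest for both. TNNT3, at 2.35, 2.45 and 1.18 FPKM, lay below every HS library, which held for 10.3% of all tested genes, while PYGM was the 1 gene above, which held for 8.53%. The interval for DES was -0.72 to 1.69 on the log2(FPKM + 1) scale. Among the genes below the filter, ATP2A1 and CKMT2 were picked out after their values were seen. ATP2A1, the calcium pump of fast fibres, had 14, 19 and 24 reads in drug-loaded MNs (0.27, 0.36 and 0.51 FPKM). In HS it had 3, 4 and 5 (0.064, 0.081 and 0.094 FPKM). It had 5, 7 and 16 in NS (0.088, 0.124 and 0.313 FPKM) and 7, 7 and 9 in 5-Fu injection (0.129, 0.156 and 0.171 FPKM). The libraries of both treatments thus lay above every HS library. The share of genes below the filter for which this held was not computed. CKMT2, a mitochondrial creatine kinase of striated muscle, had 3, 4 and 11 reads in drug-loaded MNs and 1, 1 and 1 in HS, beside 14, 8 and 4 in NS and 11, 5 and 14 in 5-Fu injection. HS had the lowest mean FPKM of the 4 groups for both genes. With no filter on low values, limma called 0 listed genes in any of the 6 comparisons. The median log2 fold change over the 11 was 0.18, beside -0.02 over all tested genes.

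The comparison of 5-Fu injection with HS asked the same of the injected drug. MYBPC1 was at 9.79, 6.11 and 10.7 FPKM in 5-Fu injection, above every HS library. The difference was 0.60 (SE 0.20, limma adjusted p = 0.101). CASQ2, at 3.69, 1.79 and 3.20 FPKM, overlapped with HS in 1 library and differed by 0.80 (SE 0.38, limma adjusted p = 0.212). PYGM, at 2.96, 1.43 and 3.85 FPKM, differed by 0.62 (SE 0.34, limma adjusted p = 0.277). In these 3 genes 5-Fu injection 2 was the lowest library of its group.

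Of the 11 genes 0 were called in 5-Fu injection against HS, where limma called 2.29% of all tested genes, and 1 (MYBPC1) had an unadjusted p under 0.05 against 26.0%. MYBPC1 and ENO3 lay above HS without overlap, which held for 13.9% of all tested genes. ENO3 was at 7.54, 6.76 and 7.38 FPKM in 5-Fu injection. The median log2 fold change over the 11 was 0.57, beside 0.02 over all tested genes. Both treatment comparisons share the 3 HS libraries, so their directions are not independent.

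**Figure D5:**
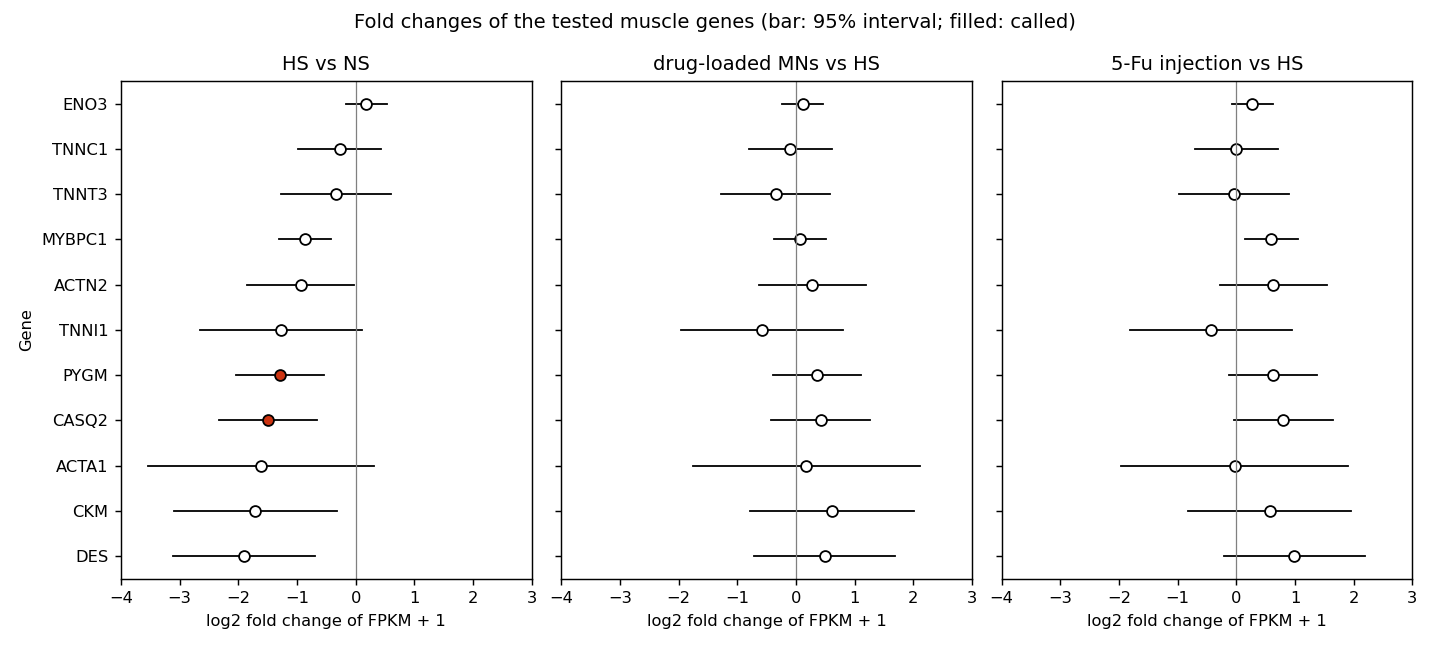
Log2 fold changes of FPKM + 1 for the 11 tested muscle genes in 3 comparisons, with 95% intervals as bars and filled points for genes called by limma. CASQ2 and PYGM are filled in HS against NS, and 0 genes are filled in either treatment against HS.

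Treated scars were also set against NS, which serves again as the reference with the same 3 libraries. In drug-loaded MNs, MYBPC1 was at 5.79, 5.03 and 6.21 FPKM, below every NS library, with a difference of -0.80 (SE 0.20, limma adjusted p = 0.109). TNNI1 differed by -1.85 (SE 0.63, limma adjusted p = 0.229) and CASQ2 by -1.07 (SE 0.38, limma adjusted p = 0.254). MYBPC1 and PYGM lay below NS without overlap, which held for 9.11% of all tested genes. Of the 11 genes 0 were called, where limma called 0.873% of all tested genes, and 5 had an unadjusted p under 0.05 against 12.9%.

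In 5-Fu injection against NS, every library of 5-Fu injection lay above every NS library for ENO3, as for 9.60% of all tested genes, with a difference of 0.45 (SE 0.16, limma adjusted p = 0.249). TNNI1, at 0.85, 1.54 and 4.96 FPKM in 5-Fu injection, differed by -1.70 (SE 0.63, limma adjusted p = 0.265), and PYGM by -0.67 (SE 0.34, limma adjusted p = 0.374). Of the 11 genes 0 were called, where limma called 0.00753% of all tested genes, and 2 had an unadjusted p under 0.05 against 14.9%.

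The treatments were compared directly as well. For MYBPC1 the difference of drug-loaded MNs from 5-Fu injection was -0.53 (SE 0.20, limma adjusted p = 0.292), and the groups overlapped through 5-Fu injection 2. ENO3 differed by -0.16 (SE 0.16, limma adjusted p = 0.653) and CASQ2 by -0.38 (SE 0.38, limma adjusted p = 0.654). Of the 11 genes 0 were called, as were 0% of all tested genes, and 1 had an unadjusted p under 0.05 against 15.1%. For CASQ2 the 95% interval of the difference was -1.22 to 0.46.

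Other genes of muscle fibres, 55 by name, were followed as a second list, of which 48 were in the table and 12 passed the filter. In HS against NS, limma called 2 higher and 1 lower of the 12, where it called 3.53% of all tested genes higher and 1.48% lower. PGAM2, the muscle phosphoglycerate mutase of glycolysis, rose by 1.65 (SE 0.34, adjusted p = 0.0146, limma). CHRNE, the adult subunit of the acetylcholine receptor at the nerve-muscle junction, rose by 1.11 (SE 0.21, adjusted p = 0.0105, limma). It had 5182 reads, while other junction genes of the list had far fewer. CHRNB1 had 520, CHRNA1 91, RAPSN 44, CHRND 42 and MUSK 11. The rise of CHRNE is thus not read here as a rise of the receptor. ANKRD23, an ankyrin repeat protein that binds titin, fell by 1.05 (SE 0.22, adjusted p = 0.0186, limma). The median log2 fold change over the 12 was -0.19. Of the examples with the highest mean level, CHRNE was at 24.1 FPKM, HSPB7 at 23.0, PGAM2 at 12.0 and FBXO32 at 9.87.

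In 5-Fu injection against HS, PGAM2 fell by 1.82 (adjusted p = 0.0269, limma) and was the 1 of 12 called, against 2.29% of all tested genes. In drug-loaded MNs against HS 0 of the 12 were called, against 0.00753%, and 1 had an unadjusted p under 0.05, against 8.90%. A heart list of 7 genes had 2 in the table, MYBPC3 and NPPA, and 0 passed the filter.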

How the data were processed

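Bulk RNA-seq covered 12 samples of rabbit ear, in 4 groups of 3 rabbits assigned from the labels. Per the study's methods, mRNA was selected by poly-T and reads were filtered with in-house scripts. The aligner, counter and genome build are not given in the sources used here. Expression came as FPKM in a single table deposited by the authors, beside gene lengths. Multiplied by length, 100% of the values were whole multiples of a step per library (within 0.05 reads), so reads on genes could be counted back. Implied library sizes were 0.873 to 1.20 times the reads on genes, lowest in HS and highest in NS. The authors' own test was DESeq2 on counts, not used here. No source states whether counting used strand, so reads of genes that overlap on opposite strands cannot be told apart.

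The listed genes, marker lists and tests were chosen with earlier results of these data known. Genes named with a fold change, SE and adjusted p were the called ones, or the 3 with the smallest unadjusted p where fewer than 3 were called. DES and other listed genes beyond that rule were named after their values were seen, as was ANKRD23. The 5 genes with the highest correlation were named by rule.

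limma 3.58.1 in R 4.3.3 fitted 1 linear model of 4 groups to log2(FPKM + 1), and 13287 genes were tested, those whose FPKM averaged 1 or more over the libraries. Moderation followed the mean-variance trend, and p-values were adjusted by Benjamini-Hochberg over all tested genes in each of 6 comparisons. A call needed an adjusted p under 0.05 and a log2 fold change above 1 in size. The pseudocount of 1 understates changes of low genes. The procedure was tested on simulated data. Replicate numbers do not pair the samples, since groups hold different rabbits. Alternatives were another pseudocount and filter, other scalings, the 2 groups alone, no trend, a replicate block, adjusted p alone, voom and leaving out each replicate.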

Additional observations from a re-analysis of the deposited data

How the results depend on the processing

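For HS against NS, 2 of the listed genes were called. The number was 0 with no filter on low values, 0 with a mean FPKM of at least 5 (4 of them tested), 0 with only the 2 groups in the fit, 1 with quantile normalization, 5 after rescaling to the reads on genes and 4 with limma voom on the reads counted back. Leaving out each replicate gave 0 to 3. With the replicate block it was 1 (PYGM), where CASQ2 had a limma adjusted p of 0.0563. Deviations of samples with the same number correlated at -0.27 to 0.44. No reference spread was computed, so these values cannot decide whether the numbers share a batch. The block changed no other call of a listed gene. In the other 5 comparisons 0 were called under every alternative run.

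The fast minus slow difference in HS was -0.59 with no filter and -0.13 to 0.17 when leaving out each replicate. In 5-Fu injection it was -0.60 to 0.18 when leaving out each replicate. Without DES the summed FPKM was 29.6 in HS, 34.6 in drug-loaded MNs and 40.9 in 5-Fu injection. The causes were not tested. Rescaling moved the median log2 fold change of all tested genes by over 0.1 in 5 of the 6 comparisons, to -0.33 in HS against NS, 0.11 and 0.13 in drug-loaded MNs and 5-Fu injection against HS, and -0.19 in both against NS.

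Calls over all genes moved too. For HS against NS, 665 became 1060 after rescaling, 1215 with voom and 382 to 749 without 1 replicate. For 5-Fu injection against HS, 304 became 93 with no filter, 99 with the block, 0 with the 2 groups alone, 585 by adjusted p alone and 0 to 803 without 1 replicate. For drug-loaded MNs against NS, 116 became 51 with no filter, 63 with voom, 23 with the block and 0 to 176 without 1 replicate. For drug-loaded MNs against HS, 1 became 37 with the 2 groups alone.

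Of the 33 listed genes, 22 lay below the filter and 18 had fewer than 100 reads over the 12 libraries, which limits the precision of their values.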

Other observations

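Some muscle proteins had rows with a description but no symbol, and they were looked up after the values were seen. The 4 rows described as titin, the giant spring of the sarcomere, had 59, 2, 20 and 0 reads over the 12 libraries. A row for parvalbumin alpha, a calcium buffer of fast fibres, had 9 reads. A row for Myosin-3, the motor of embryonic muscle, had 266 reads with a highest level of 0.37 FPKM in drug-loaded MNs 2. A row for cardiac troponin T had 158 reads with a highest level of 2.90 FPKM in NS 3. The row named MYH1 is described as Myosin-4 in the table.

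Cartilage genes varied widely between rabbits of the same group. The summed level of 9 cartilage genes was 1645 to 3409 FPKM in NS, 493 to 4878 in HS, 892 to 5022 in drug-loaded MNs and 482 to 5577 in 5-Fu injection, with 0 of 9 called in HS against NS by limma and 1 at an unadjusted p under 0.05, where 5.00% of all tested genes were called and 23.4% had an unadjusted p under 0.05. Of the genes of adipocytes, 4 of 7 were in the table and 0 of the 3 tested were called in that comparison by limma, with 1 at an unadjusted p under 0.05. KRT5, the keratin of basal epidermis, was 1 of 4 tested epidermal genes called lower in HS (-1.34, SE 0.35, limma adjusted p = 0.042), against 1.48% of all tested genes.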
